A study of Mus musculus with 12 samples.

Results

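The BCL2 family survival and death genes followed here are 10 genes, taken as every noncontrol array probe whose RefSeq accession maps to Bcl2, Bcl2l1, Mcl1, Bcl2l11, Bmf, Bbc3, Bid, Bad, Bax or Bak1. The rule found 13 probes for the 10 genes among 55681 noncontrol probes, and all 10 genes were among the 22760 genes tested. The 3 pro-survival genes were set beside 7 pro-death genes, namely the 5 BH3-only genes and the 2 effectors.

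The BCL2 family decides, at the mitochondrial outer membrane, whether a cell lives or dies. Pro-survival members such as Bcl2, Bcl2l1 (which encodes BCL-XL) and Mcl1 hold the effectors Bax and Bak1 in check. BH3-only members sense stress or lost signals and either block the pro-survival proteins or engage the effectors, which then permeabilise the membrane and release cytochrome c. In B cells Bcl2l11 (BIM) is known for removing self-reactive cells after B cell receptor (BCR) ligation, and Mcl1 and BCL-XL for keeping resting and activated cells alive.

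RNA came from splenic follicular zone B cells of male C57BL/6J mice that lacked Bach2 (Bach2-/-) or were wild type (WT). Bach2 encodes a DNA-binding repressor that keeps B cells from turning into plasma cells. Each genotype was profiled after 24 h of culture with 10 µg/mL of anti-mouse IgM Fab', which engages the BCR, and at 0 h, giving Bach2-/- 24 h, Bach2-/- 0 h, WT 24 h and WT 0 h groups of 3 arrays each. The question of the study was the poor proliferation of Bach2-/- follicular B cells after BCR ligation. The sources used here give neither how the Bach2 allele was made nor the age of the mice. A 24 h culture without anti-IgM was not analysed here, so the effects of culture and of anti-IgM cannot be told apart. Nothing in the labels says that the 3 arrays of a group came from separate animals, so p-values here reflect spread among these arrays alone, which may be technical.

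Each of the 12 one-colour arrays held 62976 spots, of which 50.9% to 66.7% of the noncontrol ones were well above background, and the number of arrays limits the precision. Slide 2 held array 1 of every group and slide 1 held arrays 2 and 3. The targeted gene was lower on every Bach2-/- array, with log2 signals of 0.15, -0.85 and 0.064 at 24 h and 1.33, 0.96 and 1.10 at 0 h in Bach2-/- cells, against 3.71, 3.22 and 3.68 at 24 h and 3.99, 3.40 and 3.69 at 0 h in WT cells. The sources used here do not say whether its probe lies in the deleted part. Of the 10 follicular B cell marker genes listed, 8 were tested and all 8 were well above background on every array. Array 1 of the Bach2-/- 0 h group went against its male label. The Y-linked genes Ddx3y, Eif2s3y and Uty were well above background on the other 11 arrays and not on it. Y-linked Kdm5d was not well above background on it, nor on array 1 of WT 24 h and WT 0 h. On those 2 WT arrays Ddx3y was 0.38 and 0.64, against 1.37 to 1.73 on WT arrays 2 and 3. Uty was -4.20 and -3.85 there, against -2.36 to -2.27. Array 2 of the Bach2-/- 24 h group was the dimmest, with a 75th percentile of 87.4 intensity units against up to 307 elsewhere. This array and array 1 of Bach2-/- 0 h are the 2 called doubted here. Values without them stand beside each result of the 10 members that they change in call or direction. For the other genes named below no such values are given.

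A log2 signal is the processed intensity divided by the 75th percentile of its array, on the log2 scale. It compares 1 gene between arrays and says nothing of one gene's level against another's. Differences are log2 differences ± standard error (n = 3 arrays per group) from a limma fit to all 12 arrays, and passing means an adjusted p (Benjamini-Hochberg, 22760 genes) under 0.05. Arrays of the same replicate number deviated together, and they always shared a slide, so number and slide cannot be fully told apart. The adjusted p with the replicate number as a block is given wherever it changes a call. In bulk RNA, fewer cells of a type and less RNA per cell cannot be told apart.

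Promoter sequences are shown for 4 members on which the results turn and whose windows hold a match to a searched motif. The 250 bases before each annotated start come from RefSeq (build GRCm38.p6) and are written 5′ to 3′ on the gene's strand, with letters that match on either strand in capitals. All 10 genes were matched, with 18 windows since several genes have more than 1 start. Searched on both strands were TGANTCA, the core shared by BACH and AP-1 factors, GTAAACA, a FOXO site, and an NF-kB site, GGG and TTTCC with any 2 bases between them.
Bcl2l1 (chr2:152830718-152830967, minus strand): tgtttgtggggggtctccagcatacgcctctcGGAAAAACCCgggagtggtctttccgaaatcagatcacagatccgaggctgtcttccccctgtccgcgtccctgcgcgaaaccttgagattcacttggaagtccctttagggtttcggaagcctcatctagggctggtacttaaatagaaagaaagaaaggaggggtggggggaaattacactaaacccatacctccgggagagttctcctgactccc
Mcl1 (chr3:95658471-95658720, plus strand): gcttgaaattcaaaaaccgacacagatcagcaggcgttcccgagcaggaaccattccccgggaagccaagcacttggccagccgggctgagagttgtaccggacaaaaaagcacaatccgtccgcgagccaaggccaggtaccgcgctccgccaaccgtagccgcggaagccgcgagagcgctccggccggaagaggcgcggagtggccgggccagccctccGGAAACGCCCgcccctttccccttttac
Bcl2l11 (chr2:128125788-128126037, plus strand): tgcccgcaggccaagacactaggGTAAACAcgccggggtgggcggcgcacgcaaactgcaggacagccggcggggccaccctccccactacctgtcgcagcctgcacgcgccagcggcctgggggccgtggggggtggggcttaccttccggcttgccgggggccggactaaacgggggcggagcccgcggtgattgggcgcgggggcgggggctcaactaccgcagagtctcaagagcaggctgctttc
Bbc3 (chr7:16310011-16310260, plus strand): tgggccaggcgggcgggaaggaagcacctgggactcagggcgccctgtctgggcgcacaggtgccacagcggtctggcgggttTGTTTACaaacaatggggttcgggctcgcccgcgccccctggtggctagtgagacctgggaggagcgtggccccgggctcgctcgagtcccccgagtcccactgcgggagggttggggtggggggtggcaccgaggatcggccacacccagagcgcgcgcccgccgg
TGANTCA was in 0 of the 18 member windows and in 6.75% of all 32851 windows. GTAAACA was in 2 of them, 1 of Bcl2l11 (227 bases before the start) and 1 of Bbc3 (167 bases), against 3.17% of all windows. The NF-kB letters were in 3, 1 each of Bcl2l1 (218 bases), Mcl1 (28 bases, its sole window) and Bbc3 (136 bases, window not shown), against 1.41% of all. Bbc3 thus matched both motifs, while 1 of 2 Bcl2l11 windows and 1 of 3 Bcl2l1 windows matched. A match is a description of these letters, not a bound site.

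More members passed the test for stimulation than for genotype, which held for all genes too. Of all genes, 13.2% and 20.5% passed for stimulation in Bach2-/- and WT cells, against 0.628% and 2.98% for genotype at 0 h and 24 h. After 24 h with anti-IgM, Bcl2l1 and Bcl2l11 rose and Bcl2 fell in cells of both genotypes. Of the 10 members, 3 rose and 2 fell in Bach2-/- cells, where 5.5% of all genes rose and 7.73% fell (13.2% in all). Without both doubted arrays Bcl2 and Mcl1 did not pass in Bach2-/- cells and Bax did. In that fit 1863 of all genes rose and 1319 fell, against 1252 and 1760 with all arrays. In WT cells 4 rose and 1 fell, where 11.4% of all genes rose and 9.06% fell (20.5% in all).

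**Figure D1:**
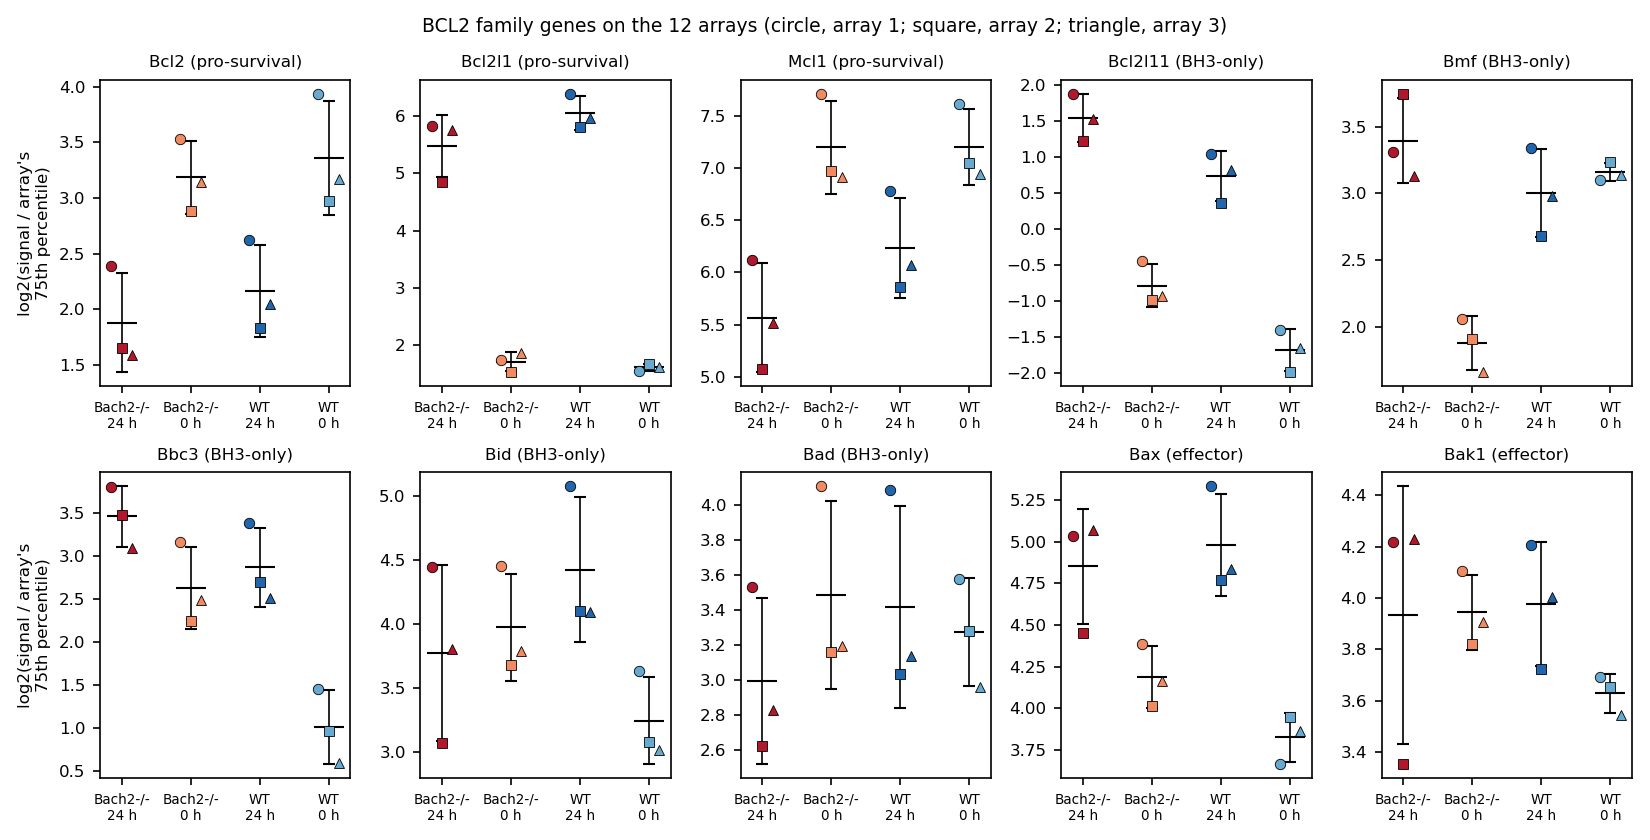
Log2 signal of the 10 genes relative to the 75th percentile of each array (y axis, a separate scale for each gene) on the 3 arrays of each of the 4 groups (x axis), with the mean and SD. Bcl2l1 and Bcl2l11 lie higher at 24 h than at 0 h in both genotypes, and Bmf is lowest in Bach2-/- 0 h cells.

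Bcl2l1 showed the largest change of any member. Log2 signals stood at 5.82, 4.85 and 5.75 at 24 h, with 1.75, 1.53 and 1.86 at 0 h on the Bach2-/- arrays. WT arrays had 6.39, 5.81 and 5.96 at 24 h and 1.55, 1.68 and 1.63 at 0 h. Arrays of 24 h and 0 h lay far apart in both genotypes. The rise was 3.76 ± 0.29 in Bach2-/- cells (13.5-fold, adjusted p = 6.18e-06) and 4.43 ± 0.29 in WT cells (21.6-fold, adjusted p = 3.93e-06). On slide 1 and slide 2 the rise was 3.60 and 4.07 in Bach2-/- cells and 4.24 and 4.83 in WT cells. The other Bcl2l1 probe, not well above background on WT 0 h array 2, rose by 3.69 ± 0.38 in Bach2-/- cells (adjusted p = 5.4e-05 over 30751 probes) and 4.40 ± 0.38 in WT cells (adjusted p = 2.42e-05).

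Bcl2, the founding pro-survival gene, moved the other way. Signals were 2.39, 1.65 and 1.59 at 24 h and 3.53, 2.88 and 3.15 at 0 h in Bach2-/- cells. In WT cells they were 2.62, 1.83 and 2.04 at 24 h and 3.94, 2.97 and 3.17 at 0 h. Every 24 h array lay below every 0 h array of its genotype. Bcl2 fell by 1.31 ± 0.35 in Bach2-/- cells (adjusted p = 0.0263) and by 1.19 ± 0.35 in WT cells (adjusted p = 0.0303). Both calls were lost in 6 of the 23 alternatives each, with adjusted p of 0.0594 to 0.146 and 0.0554 to 0.108. Among them were the fits without Bach2-/- 0 h array 1 or 3 or Bach2-/- 24 h array 2 or 3 for the first, and without WT 0 h array 1 or 3 or WT 24 h array 2 or 3 for the second. Without both doubted arrays the difference was -1.03 (adjusted p = 0.146) in Bach2-/- cells.

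Mcl1, whose protein is short-lived and binds BIM, PUMA and BAK, was also lower after stimulation. Bach2-/- arrays had 6.12, 5.08 and 5.52 at 24 h and 7.71, 6.97 and 6.91 at 0 h. WT arrays had 6.78, 5.86 and 6.07 at 24 h and 7.61, 7.05 and 6.94 at 0 h. Times did not overlap in either genotype. It fell in Bach2-/- cells (-1.63 ± 0.36, adjusted p = 0.0103). The call was lost only without both doubted arrays (-1.13, adjusted p = 0.0825). In WT cells the difference was -0.96 ± 0.36 (adjusted p = 0.0846), which passed with the replicate block (adjusted p = 0.000471) and in the fit without both doubted arrays (adjusted p = 0.0483). The other Mcl1 probe gave -1.20 ± 0.32 in Bach2-/- cells (adjusted p = 0.0275) and -0.42 ± 0.32 in WT cells (adjusted p = 0.426).

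Among BH3-only genes, Bcl2l11 rose in both genotypes. Bach2-/- cells gave 1.87, 1.22 and 1.52 at 24 h and -0.45, -0.99 and -0.94 at 0 h, against 1.04, 0.36 and 0.81 at 24 h and -1.41, -1.99 and -1.66 at 0 h in WT cells. No array of one time reached the other time. The changes were 2.33 ± 0.28 in Bach2-/- cells (5.01-fold, adjusted p = 0.000193) and 2.42 ± 0.28 in WT cells (5.37-fold, adjusted p = 0.00018). Within slides 1 and 2 they were 2.33 and 2.32 in Bach2-/- cells and 2.41 and 2.45 in WT cells. Bcl2l11 and Bcl2l1, a killer gene and the gene of a protector that binds its product, both rose.

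Bmf, a BH3-only gene whose product is tied to the cytoskeleton, was the single member past the test between the genotypes. Bach2-/- arrays had 3.31, 3.74 and 3.13 at 24 h and 2.06, 1.91 and 1.66 at 0 h. WT arrays had 3.34, 2.68 and 2.98 at 24 h and 3.1, 3.23 and 3.14 at 0 h. All Bach2-/- 0 h arrays stood below the 9 others. Bmf rose with stimulation in Bach2-/- cells (1.52 ± 0.25, 2.86-fold, adjusted p = 0.00162) and did not pass in WT cells (-0.16 ± 0.25, adjusted p = 0.747). The test of that difference gave 1.67 ± 0.36 (adjusted p = 0.113), and 0.0158 with the replicate block.

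Bbc3, which encodes the p53-induced killer PUMA, had signals of 3.80, 3.48 and 3.1 at 24 h and 3.16, 2.24 and 2.49 at 0 h in Bach2-/- cells. WT cells had 3.39, 2.70 and 2.51 at 24 h and 1.46, 0.97 and 0.60 at 0 h. WT 0 h arrays were the lowest, and all 9 others lay above them. It rose in WT cells (1.86 ± 0.35, 3.62-fold, adjusted p = 0.00332). In Bach2-/- cells the change was 0.83 ± 0.35 (adjusted p = 0.168, and 0.00248 with the replicate block). Its responses differed by -1.03 ± 0.49 (adjusted p = 0.726, and 0.0363 with the block).

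Bid, which links death receptors to mitochondria once caspase-8 cuts it, had 4.45, 3.07 and 3.80 at 24 h and 4.45, 3.68 and 3.79 at 0 h in Bach2-/- cells, against 5.08, 4.10 and 4.10 at 24 h and 3.64, 3.08 and 3.02 at 0 h in WT cells. Its times overlapped in Bach2-/- cells and not in WT cells. The WT change of 1.18 ± 0.40 did not pass (adjusted p = 0.0585), and passed with the replicate block (adjusted p = 0.000496) and without both doubted arrays (adjusted p = 0.028). The Bach2-/- change was -0.20 ± 0.40 (adjusted p = 0.878), and 0.39 without those arrays (adjusted p = 0.555). The responses differed by -1.38 ± 0.57 (adjusted p = 0.626, and 0.0213 with the block). Bad, a BH3-only gene whose product growth-factor signals inactivate by phosphorylation, had 3.53, 2.62 and 2.83 at 24 h and 4.11, 3.16 and 3.19 at 0 h in Bach2-/- cells, against 4.09, 3.04 and 3.14 at 24 h and 3.58, 3.28 and 2.96 at 0 h in WT cells. Its times overlapped in both genotypes, and the changes were -0.49 ± 0.38 (adjusted p = 0.54, and 0.0418 with the block) in Bach2-/- and 0.15 ± 0.38 (adjusted p = 0.856) in WT cells. Without both doubted arrays the Bach2-/- change of Bad was 0.0046 (adjusted p = 0.995). The other Bad probe differed by -0.72 ± 0.47 and 0.14 ± 0.47 in Bach2-/- and WT cells, with adjusted p of 0.437 and 0.885.

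Of the effectors, Bax rose in WT cells and Bak1 did not pass in either genotype. Bax signals were 5.03, 4.45 and 5.07 at 24 h and 4.38, 4.02 and 4.16 at 0 h in Bach2-/- cells, and 5.33, 4.77 and 4.84 at 24 h and 3.66, 3.95 and 3.87 at 0 h in WT cells. Times did not overlap in either genotype. The change was 0.67 ± 0.26 in Bach2-/- cells (adjusted p = 0.128, and 0.0239 with the replicate block) and 1.15 ± 0.26 in WT cells (adjusted p = 0.00841). Without both doubted arrays Bax passed in Bach2-/- cells too (0.96, adjusted p = 0.0426). Bak1 had 4.22, 3.35 and 4.23 at 24 h and 4.10, 3.82 and 3.91 at 0 h in Bach2-/- cells, against 4.21, 3.72 and 4.0 at 24 h and 3.69, 3.65 and 3.54 at 0 h in WT cells. Its changes were -0.011 ± 0.27 in Bach2-/- cells (adjusted p = 0.992) and 0.35 ± 0.27 in WT cells (adjusted p = 0.438), with 0.36 in Bach2-/- cells without both doubted arrays (adjusted p = 0.371).

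**Figure D2:**
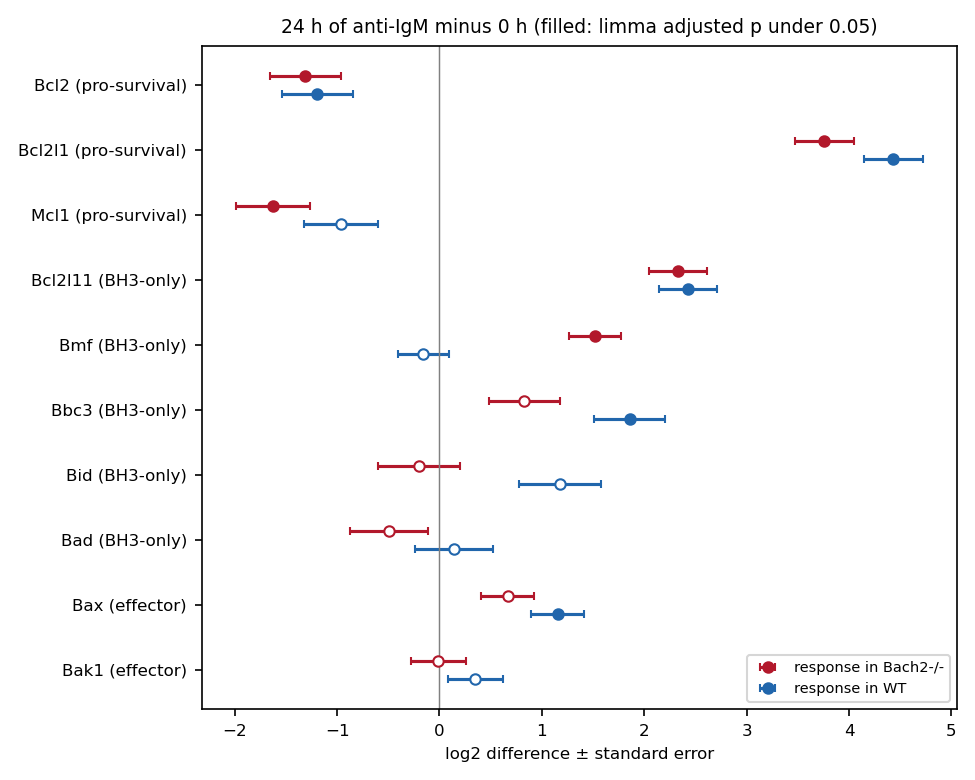
Log2 difference of 24 h with anti-IgM minus 0 h with its standard error (x axis) for each gene (y axis), in Bach2-/- cells (red) and WT cells (blue), with filled points at an adjusted p under 0.05. Bcl2l1 changed most, by 3.76 in Bach2-/- and 4.43 in WT cells.

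Arrays of the 2 times did not overlap for 6 of the 10 members in Bach2-/- cells, against 25.1% of all genes, and for 8 in WT cells, against 38.2% of all genes. The median change over the members was 0.33 in Bach2-/- cells, beside 0.072 over all genes, and 0.75 in WT cells, beside 0.04 over all genes. The B cell marker genes moved at the same time, where 8 of 8 fell in Bach2-/- cells and 6 of 8 in WT cells. Their summed linear signal, in units of the 75th percentile of the array, was 235 to 401 at 24 h and 1209 to 1917 at 0 h in Bach2-/- cells, against 450 to 848 at 24 h and 1133 to 1535 at 0 h in WT cells. That of the 7 T cell markers was 84.8 to 106 at 24 h and 35 to 41.7 at 0 h in Bach2-/- cells, against 96 to 160 at 24 h and 34.7 to 49.1 at 0 h in WT cells, and 1 of 7 rose in each genotype while 3 fell in WT cells. The part of these markers in the members' changes was not tested. With the replicate block 5 members rose and 3 fell in Bach2-/- cells (33.4% of all genes passed), and 5 rose and 2 fell in WT cells (47% passed).

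Before stimulation the genotypes differed by the test in 1 member only. Bmf was lower in Bach2-/- 0 h cells by 1.28 ± 0.25 on the log2 scale (2.43-fold, adjusted p = 0.0497), a comparison in which 0.0923% of all genes were lower and 0.536% higher (0.628% in all). The p lay at the threshold, and the call was lost in 17 of 23 alternatives, with adjusted p of 0.0518 to 0.251. Leaving out any 1 of the 6 arrays compared ended it. The sign was the same on slide 1 (-1.40) and slide 2 (-1.04). With the replicate block the adjusted p was 0.00749 (of all genes past it, 75.1% were higher, against 85.3% without), and without both doubted arrays the difference was -1.37 (adjusted p = 0.0626).

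The BH3-only genes Bbc3, Bcl2l11 and Bid had higher values on every Bach2-/- 0 h array than on any WT 0 h array, without passing. Bbc3 differed by 1.62 ± 0.35 (3.07-fold, adjusted p = 0.0751, and 0.000547 with the replicate block), and its arrays did not overlap. It passed on slide 1 alone (1.58, adjusted p = 0.0341) and with quantile normalization (adjusted p = 0.0193). Without both doubted arrays the Bbc3 difference was 1.35 (adjusted p = 0.296). Bcl2l11 differed by 0.90 ± 0.28 (1.86-fold, adjusted p = 0.36, and 0.00449 with the block), again without overlap and alike on slide 1 (0.87) and slide 2 (0.96). Bid (0.73 ± 0.40), Bax (0.36 ± 0.26), Bak1 (0.32 ± 0.27) and Bad (0.21 ± 0.38) did not pass, each with an adjusted p of 1 at 3 digits, and Bad was -0.10 without both doubted arrays. Neither did the pro-survival genes Bcl2 (-0.17 ± 0.35), Bcl2l1 (0.10 ± 0.29) and Mcl1 (-0.0017 ± 0.36). Arrays did not overlap for 6 of the 7 pro-death genes and for 0 of the 3 pro-survival genes, where 12.1% of all genes did not overlap. These pro-death genes went in both directions, with Bbc3, Bcl2l11, Bid, Bax and Bak1 higher in Bach2-/- cells and Bmf lower.

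**Figure D3:**
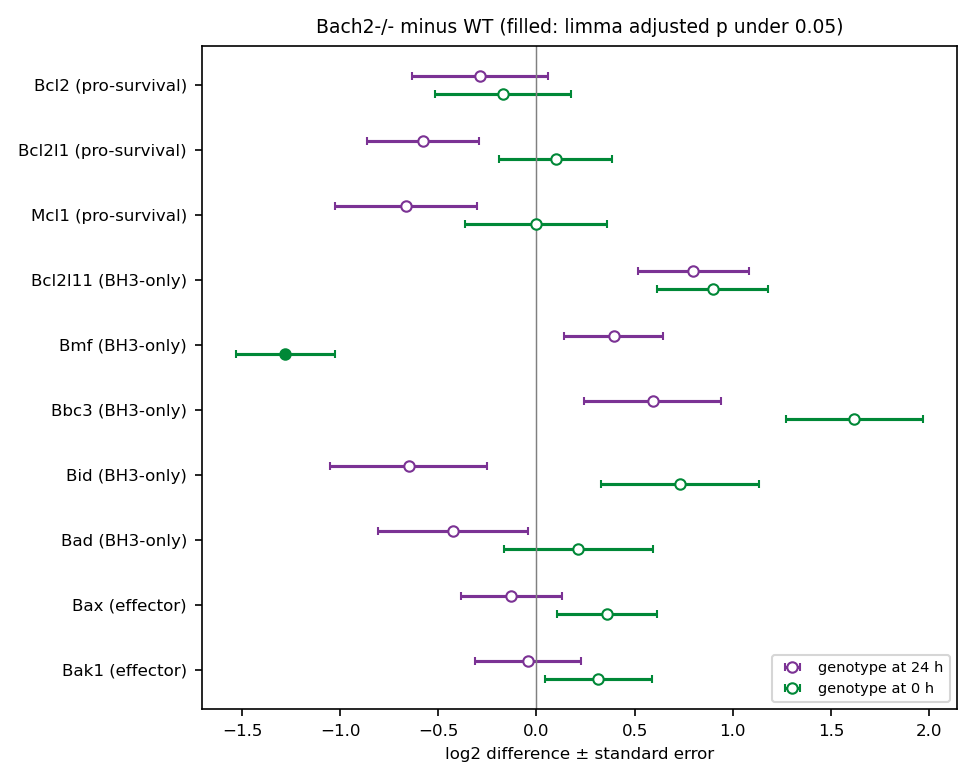
Log2 difference of Bach2-/- minus WT cells with its standard error (x axis) for each gene (y axis), after 24 h of anti-IgM (purple) and at 0 h (green), with filled points at an adjusted p under 0.05. Bmf at 0 h, at -1.28, is the single filled point.

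After 24 h of anti-IgM, 0 of the 10 members passed limma's test between the genotypes (1 at an unadjusted p under 0.05), while 2.15% of all genes were higher and 0.83% lower in Bach2-/- cells (2.98% in all). Bcl2l11 was the member with an unadjusted p under 0.05, and it differed by 0.80 ± 0.28 (1.74-fold, adjusted p = 0.228, and 0.00348 with the replicate block). Its Bach2-/- arrays lay above its WT arrays at 24 h as at 0 h, the single member without overlap at 24 h, as 15.4% of all genes. With the block 4 members passed, beside 18.7% of all genes, of which 42.8% were higher in Bach2-/- cells, against 72.1% without the block. These were Bcl2l11 and Bbc3 (0.59 ± 0.35, adjusted p = 0.0292 with the block and 0.56 without), higher in Bach2-/- cells, and Mcl1 (-0.67 ± 0.36, 0.015 and 0.514) and Bid (-0.65 ± 0.40, 0.0345 and 0.58), lower in Bach2-/- cells.

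The 3 pro-survival genes all had negative differences at 24 h, with Bcl2l1 at -0.58 ± 0.29 (adjusted p = 0.458) and Bcl2 at -0.29 ± 0.35 (adjusted p = 0.806), and neither passed with the block (0.08 and 0.16). The remaining differences were 0.39 ± 0.25 for Bmf, -0.42 ± 0.38 for Bad, -0.13 ± 0.26 for Bax and -0.045 ± 0.27 for Bak1, with adjusted p of 0.601, 0.726, 0.9 and 0.97. Without the dimmest array and the array that went against its label, the differences were -0.27 for Bcl2l1, -0.42 for Mcl1, -0.30 for Bid and 0.96 for Bcl2l11. In that fit Bax and Bak1 were 0.072 and 0.25. None of these 6 passed in it (adjusted p 0.163 to 0.994).

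The response differed between the genotypes by limma's test in 0 of the 10 members (2 at an unadjusted p under 0.05, Bmf and Bid), where 0.255% of all genes passed upward and 0.0615% downward (0.316% in all). With the replicate block 3 passed, Bmf upward and Bbc3 and Bid downward, against 4.28% of all genes, of which 40.3% were upward, against 80.6% without it. The differences of response were -0.12 ± 0.49 for Bcl2, -0.67 ± 0.40 for Bcl2l1, -0.66 ± 0.51 for Mcl1 and -0.10 ± 0.40 for Bcl2l11. They were -0.64 ± 0.54 for Bad, -0.49 ± 0.36 for Bax and -0.36 ± 0.38 for Bak1. Without both doubted arrays the sign turned for Bcl2 (0.17), Bcl2l11 (0.23) and Bak1 (0.01). In the fit to all arrays the adjusted p of these 7 was 0.836 to 0.982.

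To set survival against death, each gene's log2 signal was taken relative to its own WT 0 h mean and averaged within a class on each array. In Bach2-/- cells the pro-survival average came to 0.72, -0.20 and 0.23 at 24 h, with 0.27, -0.26 and -0.086 for 0 h. In WT cells it was 1.20, 0.44 and 0.63 at 24 h, with 0.31, -0.16 and -0.15 for 0 h. The pro-death average in Bach2-/- cells was 1.39, 0.78 and 1.03 at 24 h, with 0.77, 0.20 and 0.26 for 0 h. In WT cells it came to 1.43, 0.70 and 0.85 at 24 h, with 0.18, -0.04 and -0.14 for 0 h. Every WT 24 h array lay above 0 in the pro-survival average, and every array of the 3 groups other than WT 0 h did in the pro-death average. Subtracting the second from the first gave -0.68, -0.98 and -0.81 for Bach2-/- 24 h, -0.49, -0.46 and -0.34 for Bach2-/- 0 h, -0.23, -0.26 and -0.21 for WT 24 h and 0.13, -0.12 and -0.0051 for WT 0 h. The 4 groups did not overlap on this difference, and Bach2-/- cells were lower than WT cells at both times. Since the genes were chosen with results known, no p is given for it.

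Group means of that difference were -0.82 ± 0.15 for Bach2-/- 24 h, -0.43 ± 0.079 for Bach2-/- 0 h and -0.24 ± 0.025 for WT 24 h, with WT 0 h set to 0 (SD 0.12, n = 3 each). Against the BH3-only genes alone the means were -0.98, -0.46 and -0.33 for Bach2-/- 24 h, Bach2-/- 0 h and WT 24 h. The effectors averaged 0.67 ± 0.42 in Bach2-/- 24 h cells and 0.75 ± 0.27 in WT 24 h cells. Of the 3 pro-survival members, Bcl2l1 was the sole one that rose. Without Bcl2l1 the difference was -2.63 for Bach2-/- 24 h, -0.49 for Bach2-/- 0 h and -2.07 for WT 24 h. The pro-survival genes Bcl2a1d and Bcl2l2 and the related copy Bcl2a1c, which are not among the members, also rose in both genotypes. They do not enter the difference.

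**Figure D4:**
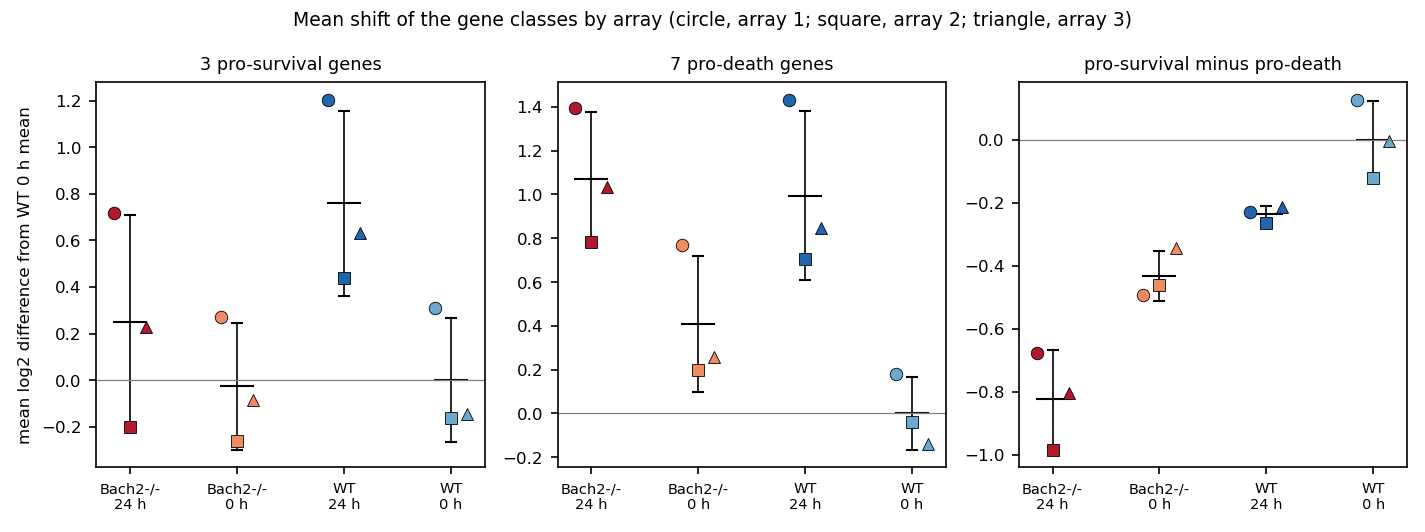
Mean log2 difference from the WT 0 h mean (y axis) over the 3 pro-survival genes, the 7 pro-death genes and the first minus the second, by group (x axis) and array, with the mean and SD. In the right panel the Bach2-/- 24 h arrays lie lowest, at -0.98 to -0.68.

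The rest of the death and survival machinery was read from a list of 41 genes, of which 34 were tested. In Bach2-/- cells 5 rose and 4 fell with stimulation, and in WT cells 5 rose and 2 fell, beside 13.2% and 20.5% of all genes that passed, so that the WT count of 7 of 34 is near the share over all genes. The list's medians were -0.14 in Bach2-/- and 0.085 in WT cells, against 0.072 and 0.04 over all genes. The A1 genes Bcl2a1d and Bcl2a1c, near-identical copies whose probes may share signal, rose most. Bcl2a1d had 7.74, 7.47 and 7.86 at 24 h and 5.21, 4.82 and 4.80 at 0 h in Bach2-/- cells, against 9.05, 8.37 and 8.12 at 24 h and 4.83, 4.91 and 4.95 at 0 h in WT cells. It rose by 2.74 ± 0.27 in Bach2-/- (adjusted p = 4e-05) and 3.62 ± 0.27 in WT cells (adjusted p = 9.1e-06), and Bcl2a1c by 2.87 ± 0.39 in Bach2-/- and 3.89 ± 0.39 in WT cells (adjusted p = 0.000392 and 5.86e-05). Bcl2l2, which encodes the pro-survival BCL-W, rose by 1.23 ± 0.24 in Bach2-/- and 1.10 ± 0.24 in WT cells (adjusted p = 0.00473 and 0.00789).

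Cflar, whose product c-FLIP blocks caspase-8 at death receptors, rose by 2.25 ± 0.31 in Bach2-/- and 2.29 ± 0.31 in WT cells (adjusted p = 0.000479 and 0.000485). Tnfrsf10b, the TRAIL death receptor gene, rose by 2.28 ± 0.43 in Bach2-/- and 1.55 ± 0.43 in WT cells (adjusted p = 0.00361 and 0.0245). Cd40, which encodes the receptor for T cell help, fell in both, to 2.32, 1.99 and 2.20 in Bach2-/- 24 h cells against 4.53, 3.83 and 4.20 at 0 h (-2.02 ± 0.32, adjusted p = 0.0012), and to 3.33, 2.06 and 2.48 in WT 24 h cells against 4.07, 3.97 and 3.84 at 0 h (-1.34 ± 0.32, adjusted p = 0.0126). Fas, another death receptor gene, fell in Bach2-/- cells (-1.81 ± 0.46, adjusted p = 0.0211), while the WT change was -0.53 ± 0.46 (adjusted p = 0.49) and the difference of the responses -1.28 ± 0.65 (adjusted p = 0.767). Of the 34 genes, 0 passed limma's test between genotypes at 24 h (8 at an unadjusted p under 0.05) or at 0 h (3), or for the difference of response (2).

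Marker genes of cell types differed between the genotypes in some lists. Of the 8 B cell markers tested, 1 passed limma's test as lower in Bach2-/- cells at 24 h (4 at an unadjusted p under 0.05). At 0 h 0 of them passed (1 at an unadjusted p under 0.05), and the medians were -0.67 at 24 h and 0.12 at 0 h. Of the 7 neutrophil markers tested of 8, 0 passed limma's test between genotypes at either time (5 at 24 h and 4 at 0 h at an unadjusted p under 0.05), with medians of 3.02 at 24 h and 2.82 at 0 h. Their summed linear signal was 12.7 to 55.2 at 24 h and 29 to 58.7 at 0 h in Bach2-/- cells, against 1.77 to 18.4 at 24 h and 12.5 to 33.9 at 0 h in WT cells, in units of the 75th percentile of the array. That of the 4 erythroid and platelet markers tested of 6 was 12.1 to 35.4 at 24 h and 34.1 to 103 at 0 h in Bach2-/- cells, against 2.92 to 4.04 at 24 h and 8.73 to 17.9 at 0 h in WT cells. Of these 4, 4 passed as higher in Bach2-/- cells at 24 h and 0 at 0 h (3 at an unadjusted p under 0.05 at 0 h), with medians of 3.66 at 24 h and 2.50 at 0 h. Not well above background on any array of a group were Mpo (neutrophil, WT 24 h and WT 0 h), Pf4 (erythroid and platelet, WT 24 h) and Klrb1c (NK cell, Bach2-/- 24 h and WT 24 h). The 5 plasma cell markers tested of 6 summed to 124 to 238 at 24 h and 75.5 to 165 at 0 h in Bach2-/- cells, against 96.4 to 176 at 24 h and 59.8 to 90.2 at 0 h in WT cells. Of these 5, 2 passed as higher in Bach2-/- cells at 24 h and 1 at 0 h, as did 2 of 6 marginal zone B markers at 24 h, where 2 were lower, and 2 at 0 h. Median differences at 24 h and 0 h were 0.21 and -0.12 for T cell markers, -0.18 and -0.059 for NK cell markers, 0.057 and -0.18 for dendritic cell markers and 0.94 and 0.19 for macrophage markers. In these 4 lists 1 T cell and 1 macrophage marker were higher and 1 dendritic cell marker lower at 24 h, and 0 passed limma's test at 0 h (at an unadjusted p under 0.05, 0 T cell, 0 NK cell, 0 dendritic cell and 0 macrophage markers). The part of these markers in the genotype differences of the BCL2 family genes was not tested.

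Genes with the pattern closest to a member were sought over the 4 group means, each gene centred on its own mean, among 11258 other genes well above background on all 12 arrays. Nearest to Bcl2 were Rgl2, which encodes an activator of Ral GTPases, and Prkacb, which encodes a catalytic subunit of protein kinase A, at root mean square differences of 0.0214 and 0.0375 on the log2 scale. Nearest to Mcl1 were Sgpp1, a sphingosine-1-phosphate phosphatase gene, and Unc119, a lipid-binding chaperone gene (0.0274 and 0.0383). Bcl2l11 was closest to Gsr, the glutathione reductase gene, and the transporter gene Slco4a1 (0.0913 and 0.111). Bcl2l1 had no gene as near, with Adarb1, an RNA-editing enzyme gene, at 0.247 and Sirpa, which encodes a receptor for CD47, at 0.261.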

How the data were processed

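Total RNA was hybridised with Cy3 to one-colour Agilent arrays, 1 sample per array, in 4 labelled groups of 3. The authors, per the file headers, read the scans with Agilent Feature Extraction 10.7.3.1, whose processed signal is an intensity after background subtraction. Median and background signals are intensities too, per the file headers, and flags for outliers, saturation and signal well above background were used. No member probe was saturated. A deposited table of all samples has log2 values, with scale and centring stated nowhere in the sources used here. Set against the scanner signals centred per probe, its columns correlated at r 0.9350 to 0.99974, so it runs in the direction of the signal, its exact scaling is unknown, and its column medians were -0.27 to 0.49.

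Outlier spots were left out, spots of 1 probe averaged, and the signal divided by the 75th percentile over the probes of its array, floored at 0.01 and put on the log2 scale. Kept were probes that 1 group or more had well above background on all its 3 arrays (30751), and each gene took its probe of highest mean. Of 55681 probes, 26413 were named through RefSeq accessions (GRCm38.p6), and the others kept the name in the file. Coordinates of the promoter windows are RefSeq's on GRCm38.p6, and none comes from the array annotation, which per the file headers is on mm9. Group means were fitted with limma 3.58.1 in R 4.3.3 with data.table version 1.17.8, in 5 contrasts. The fit was tested on simulated data. With 3 arrays against 3, an exact permutation p cannot go below 0.1. The 18 pairs of arrays with the same replicate number, which the labels give, had deviations from their group means that correlated at r 0.47 to 0.89. Pairs of other numbers had r of 0.25 to 0.65 on the same slide and of -0.81 to -0.42 on different slides. Deviations of the 3 arrays of a group sum to 0, so the negative r follow from the positive ones and are not a separate observation. The normexp alternative (offset 50) used median signals, since no mean signal was among the columns. All members are named in every comparison. From the wider list, the genes past the test are named, at most 6 of largest change per comparison. Members and lists were chosen with earlier results of these data known.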

Additional observations from a re-analysis of the deposited data

Results flagged for a closer look

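Of the 10 members, 3 BH3-only genes had a response over 24 h of culture with anti-IgM that differed between the genotypes by limma with the replicate number as a block. None of the 3 passed without the block. Of all genes, 4.28% passed this comparison with the block and 0.316% without it. For Bmf the Bach2-/- response minus the WT response was 1.67 (adjusted p = 0.0158 with the block and 0.113 without). It was 2.0 on slide 1 and 1.01 on slide 2. For Bid the same difference was -1.38 (adjusted p = 0.0213 and 0.626), with -1.35 on slide 1 and -1.45 on slide 2. For Bbc3 it was -1.03 (adjusted p = 0.0363 and 0.726), with -0.90 on slide 1 and -1.29 on slide 2. Without both doubted arrays and without a block, the differences were 1.59 for Bmf (adjusted p = 0.182), -0.79 for Bid and -0.77 for Bbc3 (adjusted p = 1 each).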

How the results depend on the processing

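Single members stayed on their side of the threshold in 1067 of 1140 cases under the 23 alternatives, while 30 calls were lost and 43 gained. The sign turned in 41 cases, in 13 of the 50 member results, and in 0 of these cases did the value pass before or after. Where it turned, the value reported was smaller than its standard error, apart from Bad in the Bach2-/- response without both doubted arrays (-0.49 ± 0.38, against 0.0046). Bcl2l1 and Bcl2l11 passed in both responses under every alternative, as did Bmf in the Bach2-/- response and Bbc3 and Bax in the WT response. At 0 h, 1 member passed between genotypes, against 2 with quantile normalization, 3 with the replicate block or the slide block, and 0 in the fits with normexp background, without a filter, with the authors' deposited table, restricted to genes above background on all 12 arrays, to the compared groups, or to the 10 arrays not doubted. At 24 h it was 0, against 4 with either block. In Bach2-/- responses 5 passed, against 8 with either block, and for the difference of response 0, against 3 with either block. Leaving out 1 array gave 0 to 1 members (genotype at 0 h), 0 to 0 (genotype at 24 h), 4 to 5 (Bach2-/- response), 4 to 6 (WT response) and 0 to 0 (difference of response). The pro-survival minus pro-death shift of the WT response, -0.24, was -0.36 with quantile normalization and -0.076 with normexp. Leaving out 1 array, the shifts were -0.49 to -0.37 (genotype at 0 h), -0.66 to -0.51 (genotype at 24 h), -0.46 to -0.31 and -0.30 to -0.17 (responses in Bach2-/- and WT cells) and -0.23 to -0.072 (difference of response). All genes past the test at 0 h numbered 143, against 219 with quantile normalization, 73 with normexp, 78 above background on all arrays, 83 with only the compared groups, 726 and 842 with the slide and replicate blocks and 61 to 188 without 1 array. At 24 h they were 678, against 343, 360 and 292 (normexp, all arrays, compared groups), 3467 and 4247 (blocks) and 349 to 644. For the Bach2-/- response they were 3012, against 1949 (compared groups), 7057 and 7613 (blocks) and 2096 to 3160. For the WT response they were 4669, against 10215 and 10688 (blocks) and 2892 to 5326, and for the difference of response 72, against 44, 31, 780 and 975 (normexp, all arrays, blocks) and 34 to 70. The share of higher genes moved too, at 0 h to 75.1% and 75.2% with the replicate and slide blocks against 85.3%, at 24 h to 42.8% and 43.8% with them and 86.3% with only the compared groups against 72.1%, and for the difference of response to 40.3% and 40.4% with the blocks against 80.6%. The cause of these changes was not tested.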

Other observations

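Bcl2l1 and Bcl2l11 both rose with stimulation, and their log2 changes from the WT 0 h mean can be subtracted on each array. The Bcl2l1 change minus the Bcl2l11 change was 0.65, 0.33 and 0.92 in Bach2-/- cells at 24 h, with -1.11, -0.79 and -0.51 for 0 h. In WT cells it was 2.04, 2.15 and 1.85 at 24 h, with -0.34, 0.36 and -0.018 for 0 h. Bach2-/- arrays lay below WT arrays at both times without overlap. The pair was chosen after its values were seen, so no test is given.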
